A study of Mus musculus with 15 samples.

Results

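Cultures of dissociated mouse cerebellar cells that received 30 ng/ml of interleukin-12 (IL-12) for 18 h were compared with cultures that received none. The cells came from C57BL/6 wild-type pups between postnatal days 0 and 4, were plated at 90000 cells per well and were stimulated at day 14 in vitro. Murine IL-12p70 produced as a recombinant protein, in which the p35 and p40 chains are joined, was used. Of the 15 cultures of the study, 10 enter the comparison, 5 unstimulated and 5 with 30 ng/ml, chosen by the group and number in their titles; 5 more with 100 ng/ml shared the fit and serve only to place the lower dose. All cultures held the same kind of cells of the same genotype and differed by the labels in the dose alone. RNA was sequenced from stranded poly(A) libraries of whole cultures, and between 26284808 and 38165757 reads per culture fell in genes. The sources used here do not say whether the 5 cultures of a group came from separate litters, so p-values measure the spread between these cultures, which may be partly technical.

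The labels call the cells neurons, and the RNA was that of a mixed culture. The median gene of the microglia markers lay at 130 TPM (a level scaled to transcript length and library size) in unstimulated cultures, that of the myelin and mature oligodendrocyte markers at 103 TPM, that of the astrocyte markers at 93.3 TPM and that of the cerebellar neuron markers at 3.22 TPM. *Map2*, a dendritic microtubule protein, was plentiful at 206 ± 15.4 CPM (read counts scaled to library size; mean ± SD, n = 5), while *Rbfox3*, the nuclear marker of mature neurons, stood at 5.20 ± 1.54 CPM and the granule cell receptor subunit *Gabra6* at 2.47 ± 1.07 CPM. Of the defining markers, Pcp2 of Purkinje cells had between 0 and 3 reads in each of the 10 cultures and the T cell receptor component Cd3e between 0 and 3. Ncr1 of natural killer cells and Cldn5 of endothelium had 0 reads in every culture. Taken 1 culture at a time, 0 reads allow up to 3 reads, and this limit covers counting error only. For 0 reads in all 10 cultures together the limit is tighter. In such bulk RNA, fewer cells of a type and less RNA per cell cannot be told apart.

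IL-12 is a cytokine of dendritic cells and macrophages that acts through a receptor of the chains IL-12Rβ1 and IL-12Rβ2, with the kinases TYK2 and JAK2. In T and natural killer cells the receptor activates mainly STAT4 and leads to interferon-γ. Neural cells answer inflammatory cytokines with genes downstream of STAT3 and NF-kB, among them acute-phase proteins, chemokines and the genes of reactive astrocytes. HIF, the oxygen-sensitive transcription factor, drives glycolytic enzymes, lactate export and glucose uptake, and NRF2 drives the enzymes that keep glutathione and thioredoxin reduced.

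At 30 ng/ml, 1209 of 15360 genes tested differed from unstimulated cultures at a false discovery rate (FDR) under 0.05, 7.87% of them. Of these, 639 were higher (4.16%) and 570 lower (3.71%). Most changes were small: the median called rise was 0.269 and the median called fall -0.348 on the log2 scale, and 400 called genes changed by less than 0.25. Rises of at least 1 on the log2 scale were seen in 11 genes and falls of that size in 9. The balance leaned down among larger changes, with 77 rises and 127 falls of at least 0.5. In 828 of the called genes the 5 stimulated cultures lay all above (499 genes) or all below (329 genes) the 5 unstimulated ones; such separation was present in 8.89% of all genes tested. Scaling by library size alone in place of TMM moved the split to 890 rises and 521 falls. The number of calls fell to 673 without unstimulated culture 3, to 794 without unstimulated culture 4, to 740 without 30 ng/ml culture 1 and to 754 without 30 ng/ml culture 5, with 278, 356, 308 and 312 falls among them.

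**Figure D1:**
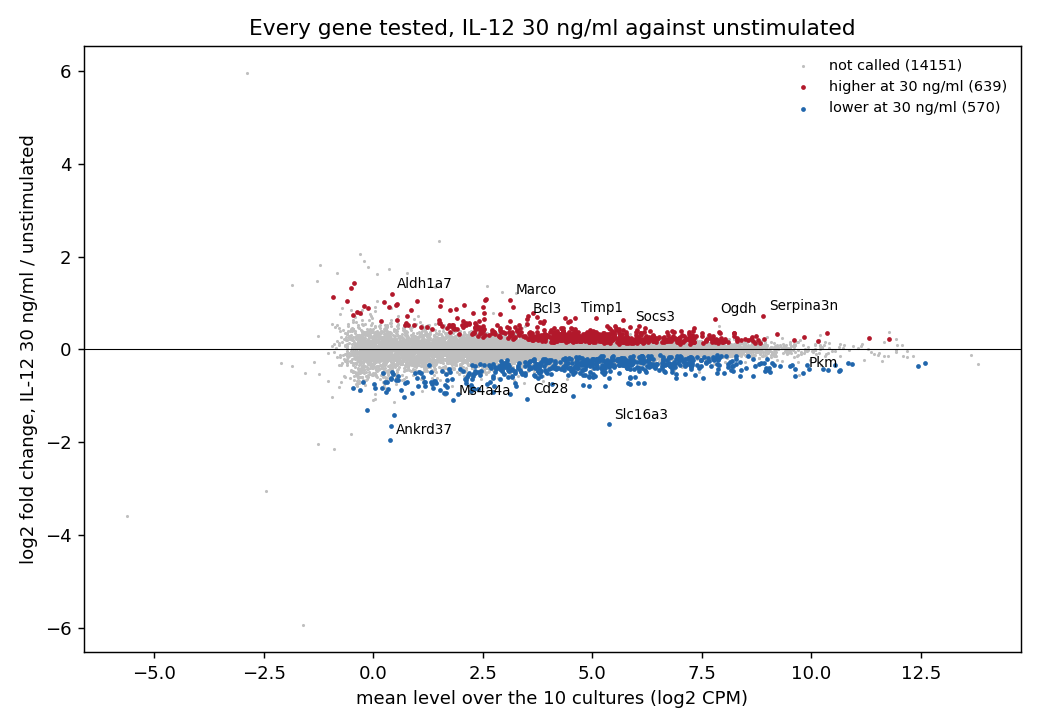
Each point is 1 of the 15360 genes tested, with its mean level over the 10 cultures in log2 CPM on the horizontal axis and its log2 fold change at 30 ng/ml on the vertical axis; the 639 genes called higher are red and the 570 called lower are blue. Most called genes lie within 0.5 of zero, and Slc16a3 is the most abundant of the genes that fell by more than 1.

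The receptor of IL-12 was thinly expressed. *Il12rb2*, the signaling chain, had 78 to 145 reads per culture and *Il12rb1*, the chain shared with IL-23, 16 to 51. Stat4 was below the filter with 0 to 6 reads per culture. The kinases *Jak2* (58.4 ± 3.37 CPM unstimulated, 56.8 ± 3.39 at 30 ng/ml; FDR 0.756) and *Tyk2* (37 ± 3.26 and 36.2 ± 1.98 CPM; FDR 0.805) were readily measured and did not pass the test. *Stat3* (log2 fold change 0.059 ± 0.039, SE; FDR 0.411) likewise missed the threshold. Of the 10 tested genes of the receptor and its proximal signaling, 1 was called, the feedback inhibitor *Socs3*, which blocks JAK kinases below gp130 receptors. That count is near the share called among all genes tested (7.87%), so it does not set the list apart. *Socs3* stood at 45.6, 52.5, 45.1, 49.7 and 48 CPM in the unstimulated cultures and at 58.3, 66.7, 75, 68.5 and 70.5 CPM with 30 ng/ml. Every stimulated culture was above every unstimulated one, and the rise was 0.49 ± 0.065 on the log2 scale (FDR 0.000452). The related inhibitors *Socs1*, *Socs2* and *Cish* had log2 fold changes of 0.16 ± 0.17, 0.092 ± 0.069 and 0.26 ± 0.14 (FDR 0.639, 0.468 and 0.259).

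The genes that lymphocytes switch on under IL-12 were near or below detection. Ifng had 0 or 1 read in each of the 10 cultures, and Gzmb had 0 reads in all of them. Of 12 listed target genes 3 were tested, among them *Hlx* (-0.25 ± 0.12; FDR 0.197) and *Eomes* (-0.17 ± 0.21; FDR 0.681), and 0 were called by edgeR or DESeq2, with 2 at an unadjusted p under 0.05. Interferon-stimulated genes gave 0 calls among 24 tested by edgeR and by DESeq2 (4 at an unadjusted p under 0.05), with a median of 0.037. Among 19 interferon-γ-responsive genes, *Gbp2*, a guanylate-binding GTPase, rose from 23.3 ± 1.30 to 28.4 ± 2.77 CPM (FDR 0.00929). *Irf8*, a transcription factor of myeloid cells, fell by 0.49 on the log2 scale (FDR 0.00756), and the checkpoint ligand *Cd274* fell by 0.58 (FDR 0.00388).

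Of 20 tested genes of the IL-6 family and its STAT3 response, 8 rose and 0 fell by edgeR, with a median of 0.217 against 0.0 for all genes. DESeq2, and the fits without 30 ng/ml culture 5 or unstimulated culture 2, called 1 fall. In the main fit the lowest member was the cytokine oncostatin M, *Osm* (-0.35 ± 0.12; FDR 0.079). *Osm* was called in 2 of the 18 alternatives, so the fall was not the same gene in each of these fits. *Bcl3*, a nuclear partner of NF-kB p50 and p52, went from 9.17, 8.71, 9.17, 8.17 and 8.90 CPM to 12.6, 14.1, 15.1, 14.3 and 13.9 CPM, with no overlap. This was a rise of 0.66 ± 0.063 on the log2 scale (FDR 1.91e-05). *Serpina3n*, a secreted inhibitor of serine proteases, was measured at 378, 418, 340.1, 300.4 and 369.9 CPM without and 598, 615, 668, 546 and 568 CPM with IL-12, again with the groups apart (0.73 ± 0.073; FDR 2.67e-05). The inhibitor of metalloproteinases *Timp1* was at 17.6, 20.6, 19, 18.1 and 18.8 CPM and then at 28.4, 30.6, 33.6, 29.8 and 28.4 CPM, a rise of 0.68 ± 0.074 (FDR 6.39e-05). *Timp1* lies within *Syn1* on the opposite strand, and whether the estimates used the strand of the reads is not given in the sources used here. *Vim*, the intermediate filament vimentin, rose less, by 0.25 ± 0.054 (FDR 0.00918), in every stimulated culture. *Lif*, a cytokine of the IL-6 family, rose from 16.4 ± 1.96 to 22.5 ± 3.81 CPM (0.46 ± 0.12; FDR 0.0251), and its FDR went up to 0.0718 without unstimulated culture 1 or 5 or 30 ng/ml culture 4 or 5. *Osmr*, the oncostatin M receptor, and the transcription factor *Cebpd* passed narrowly (FDR 0.0474 and 0.0433); each lost its call in 8 of the 10 fits that left out 1 culture. Without unstimulated culture 1 or 5 the count of the list was 5.

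Acute-phase and serpin genes gave 5 rises and 0 falls among 11 tested, with a median of 0.355. Besides *Serpina3n* they were *A2m*, the broad protease trap α2-macroglobulin, the metalloreductase *Steap4*, the serum amyloid gene *Saa3* and *Serpina3i*. *A2m* was abundant, at 1186, 1200.0, 1114, 1038 and 1252 CPM without stimulation and 1599, 1567, 1430.0, 1392 and 1418 CPM with it, and the groups did not overlap (FDR 0.00137). *Steap4* was at 27.2, 27.9, 30.7, 17.3 and 26.6 CPM and at 47.2, 41.7, 50.5, 34.8 and 34.3 CPM, a rise of 0.68 ± 0.14 (FDR 0.00665). *Saa3* was at 4.29, 7.99, 7.60, 9.65 and 7.72 CPM at 30 ng/ml against 4.73, 3.51, 3.32, 4.48 and 3.59 CPM; 30 ng/ml culture 1 lay within the unstimulated range (FDR 0.00503). *Serpina3i* had 14 to 64 reads per culture and belongs to a cluster of near-identical genes, so that its value (1.03 ± 0.24; FDR 0.0157) depends on how the estimates split shared reads.

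The windows of 250 bases before the start of the most abundant transcript were read for motifs on both strands, since STAT dimers bind the palindrome TTCNNNGAA (GAS). Of 15347 genes with a window, 6.39% held it, against 7.67% of the rising and 5.61% of the falling genes. Of the 12 rising STAT3-responsive and acute-phase genes 3 held it: *Socs3*, *A2m* and *Serpina3i*. NF-kB motifs GGGNNNTCC were present in 17.4% of all windows, in 19.7% of those of rising genes and in 5 of these 12. The windows of *A2m* and *Serpina3i* are shown because both lie outside annotated untranslated and coding bases of the basic gene set; GRCm39, chr6:121612928-121613177 (plus strand) and chr12:104229113-104229362 (plus strand), 5′ to 3′, with the TTCNNNGAA matches in capitals. A match is a description of the letters and was not tested as a site.
A2m: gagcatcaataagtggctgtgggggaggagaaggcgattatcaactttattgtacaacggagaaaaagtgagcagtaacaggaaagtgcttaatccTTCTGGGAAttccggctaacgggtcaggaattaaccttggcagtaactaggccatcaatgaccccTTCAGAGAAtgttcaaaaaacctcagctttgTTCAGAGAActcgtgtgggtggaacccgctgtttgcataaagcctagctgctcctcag
Serpina3i: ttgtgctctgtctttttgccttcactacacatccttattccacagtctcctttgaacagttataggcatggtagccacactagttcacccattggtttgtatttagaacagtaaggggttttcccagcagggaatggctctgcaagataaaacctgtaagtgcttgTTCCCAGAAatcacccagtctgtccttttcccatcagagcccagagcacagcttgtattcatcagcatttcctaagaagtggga

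Chemokines and NF-kB-responsive genes rose in part. Of 14 chemokines 4 rose and 0 fell: *Cxcl5* and *Cxcl1*, which attract neutrophils, *Ccl2*, which attracts monocytes, and the membrane-bound *Cx3cl1*, the ligand of the microglial receptor CX3CR1. *Ccl2* was at 8.62, 9.61, 12.1, 11.7 and 8.37 CPM and then 12.8, 16.9, 22.7, 13.7 and 16.2 CPM, all stimulated cultures above all unstimulated ones (0.71 ± 0.16; FDR 0.0103). *Cxcl5* rose from a low level, 1.32 ± 0.217 to 2.71 ± 0.671 CPM (FDR 0.00146). *Cxcl1* rested on 9 to 44 reads per culture (1.31 ± 0.25; FDR 0.00471). *Cx3cl1* rose from 44.5 ± 2.11 to 54.8 ± 4.35 CPM (FDR 0.0123). NF-kB-responsive genes counted 5 rises and 1 fall of 22, among them the adhesion molecule *Vcam1*, which rose from 112 ± 6.77 to 148 ± 12.6 CPM with the groups apart (FDR 0.00201). The rises of *Ccl2* and *Cxcl1* are counted in both lists, and that of *Bcl3* with the STAT3-responsive genes as well.

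Reactive astrocyte genes counted 11 rises and 1 fall of 35, with a median of 0.204, and astrocyte markers 4 rises and 0 falls of 17, with 2 rises left without unstimulated culture 1. The lists overlap. Of the 11 rises, those of *Serpina3n*, *Timp1*, *Vim* and *Osmr* are counted with the STAT3-responsive genes as well. The rise of *Steap4* is also counted with the acute-phase genes, and that of *Gbp2* with the interferon-γ-responsive genes. At 100 ng/ml the astrocyte markers had 2 rises and 2 falls, with a median of -0.02. The asparaginase *Aspg*, listed as a reactive gene, went from 2.38, 3.08, 3.21, 3.19 and 2.48 CPM to 5.68, 5.80, 6.10, 5.02 and 5.06 CPM (0.95 ± 0.14; FDR 0.000791). *Tgm1*, a transglutaminase, was at 2.82, 2.29, 2.48, 2.90 and 2.67 CPM and at 4.06, 5.49, 5.54, 4.47 and 4.53 CPM (0.86 ± 0.14; FDR 0.00168). The sphingosine 1-phosphate receptor *S1pr3* rose from 409.6 ± 20.4 to 473 ± 14.4 CPM (FDR 0.0166). Both *Slc1a3*, the astrocytic glutamate transporter, and *Aldoc*, the aldolase of astrocytes and Purkinje cells, rose, by 0.19 ± 0.045 (FDR 0.0137) and 0.27 ± 0.061 (FDR 0.012). *Gfap*, the astrocytic filament, was at 3640.0 ± 266 and 4226 ± 361 CPM and missed the threshold (FDR 0.0697; 0.034 with DESeq2). The single fall of the list was *Srgn*, the proteoglycan serglycin of haematopoietic granules, from 50.1 ± 7.05 to 28.9 ± 4.17 CPM (FDR 0.000455). The summed level of the astrocyte markers was 4281 to 4761 TPM in unstimulated cultures and 5019 to 5821 TPM at 30 ng/ml, and its part in the rise of reactive genes was not tested. With the likelihood-ratio test the list counted 17 rises, and with DESeq2 18.

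**Figure D2:**
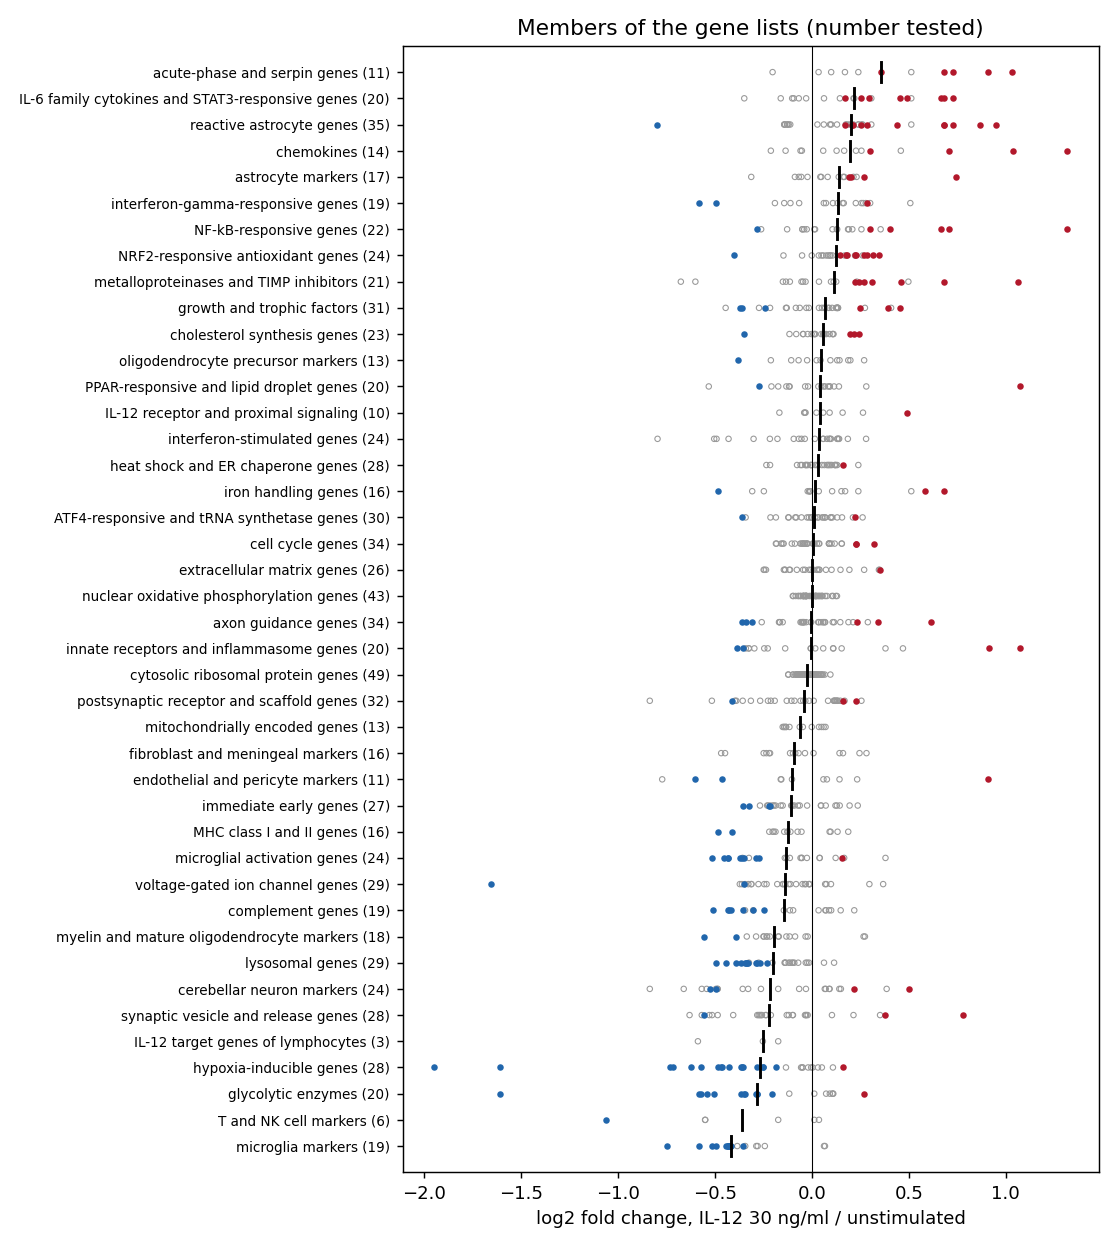
Rows are the gene lists with at least 3 members tested (number in brackets) and points their members, by log2 fold change at 30 ng/ml on the horizontal axis; filled red points were called higher, filled blue points called lower, open points were not called, and the black bar is the median of the list. Acute-phase, STAT3-responsive and reactive astrocyte genes lie at the upper end, and microglia markers, glycolytic enzymes and hypoxia-inducible genes at the lower end.

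Of 21 metalloproteinases and their inhibitors 7 rose, among them *Timp1* already counted above, 0 fell and 14 did not pass by edgeR. The lowest, the macrophage elastase *Mmp12*, went from 18.1 ± 5.53 to 11.3 ± 3.82 CPM (-0.68 ± 0.22; FDR 0.0641); the likelihood-ratio test, the replicate block, no filter on low counts and the fits without 30 ng/ml culture 1 or unstimulated culture 4 called 1 fall in the list. *Mmp3*, stromelysin-1, was at 2.82, 4.20, 4.71, 4.01 and 3.21 CPM without and 6.24, 7.30, 9.43, 8.52 and 7.93 CPM with IL-12, a rise of 1.06 ± 0.16 with no overlap (FDR 0.00092). *Mmp17* rose from 14.7 ± 1.31 to 20.2 ± 1.09 CPM (FDR 0.00231), *Mmp19* from 35 ± 1.59 to 42.2 ± 1.07 CPM (FDR 0.00314) and the membrane-bound *Mmp14* from 189 ± 8.06 to 223 ± 9.24 CPM (FDR 0.00563). The aggrecanases *Adamts1* and *Adamts5* rose by 0.23 ± 0.050 (FDR 0.0111) and 0.31 ± 0.064 (FDR 0.00706). Of 26 matrix genes only *Matn2*, the adaptor matrilin-2, was called (211 ± 16.4 to 269.7 ± 5.55 CPM; FDR 0.000479); DESeq2 and the likelihood-ratio test each called 5 rises and 3 falls in that list.

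Of 28 hypoxia-inducible genes, all tested, 17 fell and 1 rose, with a median of -0.266; at 100 ng/ml 15 were lower and 2 higher, with a median of -0.264. *Slc16a3*, the lactate exporter MCT4, was at 67.1, 51.1, 64.1, 64.5 and 65.8 CPM in unstimulated cultures and at 13, 19.7, 22.5, 29.5 and 17.8 CPM at 30 ng/ml. The groups were far apart, and the fold was 0.328 of the unstimulated level (-1.61 ± 0.15 on the log2 scale; FDR 1.91e-05). *Ankrd37*, a sensitive HIF target, was low throughout, at 2.90, 1.43, 2.19, 1.65 and 2.18 CPM and 0.429, 0.417, 0.599, 0.790 and 0.460 CPM (12 to 111 reads per culture), and showed the largest fall of the named genes (-1.95 ± 0.25; FDR 0.000295). Both overlap genes on the opposite strand, *Slc16a3* with *Csnk1d* and *Ccdc57* and *Ankrd37* with *Ufsp2* and *Lrp2bp*. *P4ha1*, the collagen prolyl hydroxylase subunit, has no such partner and fell from 145, 135, 147, 159 and 148 CPM to 86.1, 94.2, 93.2, 114 and 90.6 CPM (-0.62 ± 0.061; FDR 2.49e-05). *Pdk1*, a kinase that inhibits pyruvate dehydrogenase, fell from 82.4, 58.1, 68.3, 70.0 and 73.5 CPM to 36, 43, 40.0, 55 and 38.7 CPM (-0.73 ± 0.099; FDR 0.000469).

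Among the other members, *Bnip3* and *Bnip3l*, receptors of mitophagy, fell by 0.72 and 0.25 on the log2 scale (FDR 0.000664 and 0.000569). The glucose transporter *Slc2a1* fell from 155 ± 5.79 to 121 ± 4.30 CPM (FDR 0.00112), and the neuronal glucose transporter *Slc2a3*, the single rise, went from 48.7 ± 0.555 to 54.4 ± 1.43 CPM (FDR 0.0139). The ER oxidase *Ero1a* fell by 0.43 (FDR 0.0014), the prolyl hydroxylase *P4ha2* by 0.46 (FDR 0.00226), the HIF hydroxylase *Egln3* by 0.48 (FDR 0.00666), the mitochondrial adenylate kinase *Ak4* by 0.47 (FDR 0.00794) and the histone demethylase *Kdm3a* by 0.25 (FDR 0.00219). *Vegfa*, the vascular growth factor, overlapped between the groups (38.6 ± 5.19 and 30.1 ± 5.41 CPM; FDR 0.0431), with an FDR of up to 0.113 without unstimulated culture 1, 4 or 5 or 30 ng/ml culture 1, 2, 3 or 5. *Car9*, the extracellular carbonic anhydrase, fell from 16.9 ± 0.416 to 13.1 ± 1.21 CPM (FDR 0.0209, up to 0.0557 without 30 ng/ml culture 4 or 5). The count of falls stayed between 14 and 18 whichever of the 10 cultures was left out and between 16 and 18 under the other tools, scalings and filters.

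The list of glycolytic enzymes, which also holds the lactate exporter *Slc16a3*, overlaps that of hypoxia-inducible genes. Of 20 tested, 12 fell and 1 rose, with a median of -0.281. The falls of *Hk2*, *Ldha* and *Slc16a3* are counted in both lists, which together held 26 falling genes. *Pkm*, pyruvate kinase, was at 1032, 949.9, 1118, 1091 and 1067 CPM and at 678, 724, 758, 840.4 and 704 CPM, a fall of 0.51 on the log2 scale with no overlap (FDR 0.000213). *Ldha*, which makes lactate from pyruvate, was at 526, 427, 491, 499.9 and 486 CPM and at 274, 318, 326, 400.5 and 319 CPM (-0.57 ± 0.080; FDR 0.000519). Triosephosphate isomerase *Tpi1* fell by 0.58 (FDR 0.000509), the liver-type phosphofructokinase *Pfkl* by 0.54 (FDR 0.00431), enolase *Eno1* by 0.37 (FDR 0.00196), *Pgam1* by 0.35 (FDR 0.00105), aldolase *Aldoa* by 0.34 (FDR 0.00516) and phosphoglycerate kinase *Pgk1* by 0.29 (FDR 0.00137). Several of these genes have processed pseudogenes, and reads shared with them are divided by the estimates. *Gapdh*, *Gpi1* and *Hk2* passed narrowly (FDR 0.0265, 0.0263 and 0.0363) and each lost its call when any of several single cultures was left out, at FDRs of up to 0.0796, 0.0807 and 0.105. Among these, leaving out unstimulated culture 3 or 5 or 30 ng/ml culture 1 or 5 ended all 3 calls.

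The gene with the smallest FDR of all was *Ogdh*, the 2-oxoglutarate dehydrogenase of the citric acid cycle. It was at 171, 159.9, 179, 177 and 183 CPM in unstimulated cultures and at 268, 289, 269.9, 283 and 262 CPM at 30 ng/ml. It was higher in 5 of 5 stimulated cultures than in any unstimulated one, by 0.66 ± 0.044 (FDR 2.55e-07). Subunits of oxidative phosphorylation gave 0 calls among 43 nuclear genes by edgeR and by DESeq2, with 0 at an unadjusted p under 0.05 and a median of 0.001. The 13 mitochondrially encoded genes gave 0 calls by edgeR, 2 at an unadjusted p under 0.05 and 1 fall by DESeq2, with a median of -0.062.

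**Figure D3:**
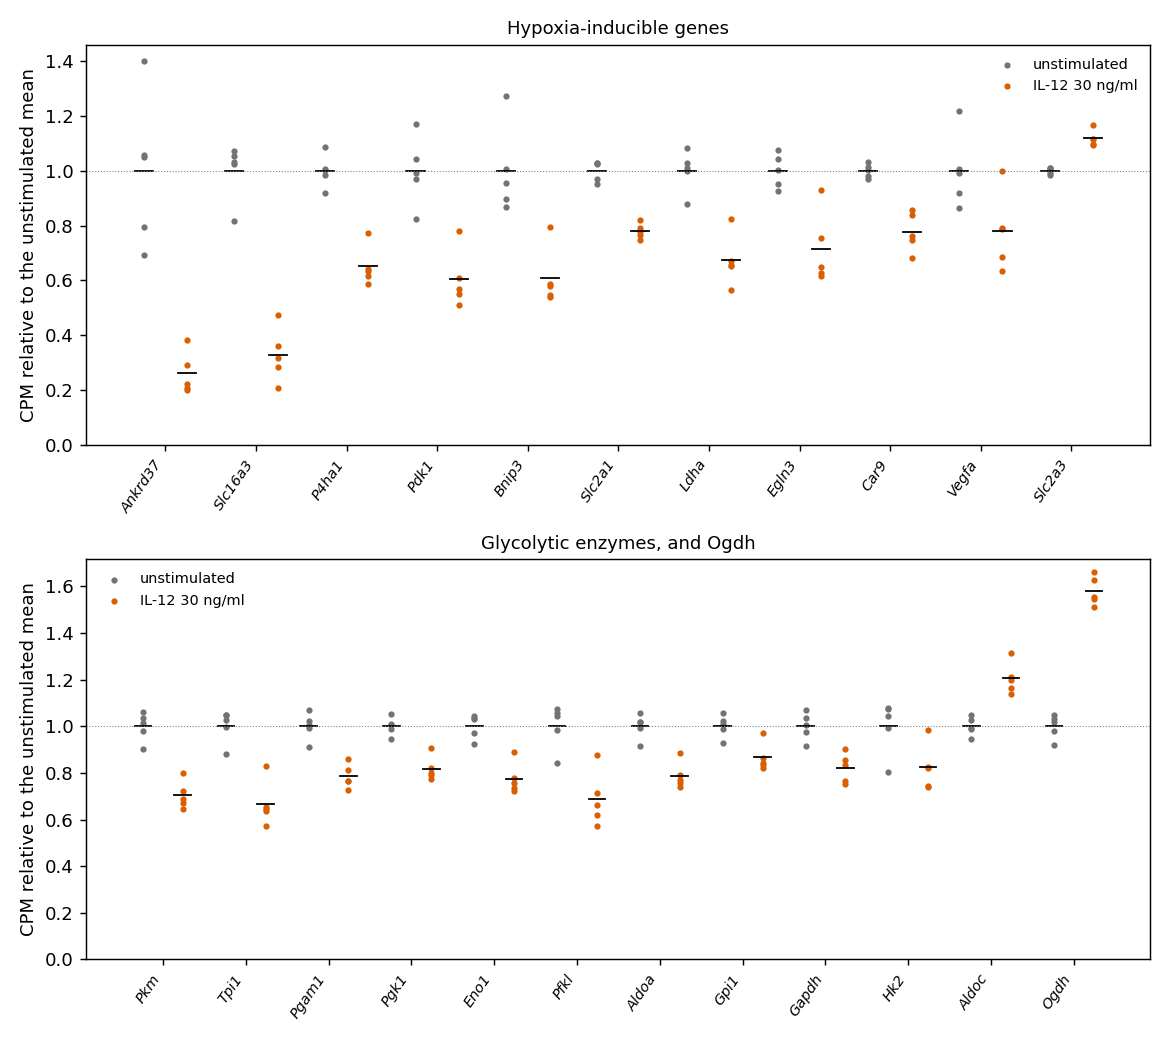
Each point is 1 culture, with its level in CPM divided by the mean of the unstimulated cultures on the vertical axis (grey unstimulated, orange 30 ng/ml, black bars the means of 5). Ankrd37 and Slc16a3 fell furthest among hypoxia-inducible genes, the falling glycolytic enzymes of the lower panel lie between Tpi1 at a fold of 0.667 and Gpi1 at 0.866, and Slc2a3, Aldoc and Ogdh rose.

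The letters ACGTG, the core to which HIF and other bHLH factors bind, were present in 19.8% of the 15347 windows, in 17.2% of those of rising genes and in 19.6% of those of falling genes. Of the 26 falling hypoxia-inducible and glycolytic genes 14 held it (53.8%), *Ldha* with 5 matches. ACGTG lies inside the palindrome CACGTG, where both strands match, and CACGTG itself was present in 7.30% of all windows and in 2 of these 26. *Slc16a3*, *P4ha1*, *Pkm* and *Pdk1* had no match in this window. Shown are the windows of the genes with the smallest FDR that hold the core outside annotated untranslated and coding bases: GRCm39, *Ankrd37* at chr8:46452906-46453155 (minus strand), *Bnip3l* at chr14:67246335-67246584 (minus strand) and *Bnip3* at chr7:138511254-138511503 (minus strand), 5′ to 3′, with ACGTG or its reverse complement in capitals. These genes were listed because they are known to answer hypoxia, so the share is a property of the list and was not tested.
Ankrd37: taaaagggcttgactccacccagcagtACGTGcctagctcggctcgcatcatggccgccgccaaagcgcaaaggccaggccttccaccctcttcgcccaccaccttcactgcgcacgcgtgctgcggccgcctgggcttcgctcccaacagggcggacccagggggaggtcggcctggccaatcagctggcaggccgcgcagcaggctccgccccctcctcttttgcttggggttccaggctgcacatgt
Bnip3l: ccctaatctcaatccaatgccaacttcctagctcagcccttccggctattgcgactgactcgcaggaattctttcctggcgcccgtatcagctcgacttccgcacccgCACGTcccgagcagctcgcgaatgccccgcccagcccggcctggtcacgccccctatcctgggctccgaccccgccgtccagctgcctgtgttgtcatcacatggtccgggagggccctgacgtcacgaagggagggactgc
Bnip3: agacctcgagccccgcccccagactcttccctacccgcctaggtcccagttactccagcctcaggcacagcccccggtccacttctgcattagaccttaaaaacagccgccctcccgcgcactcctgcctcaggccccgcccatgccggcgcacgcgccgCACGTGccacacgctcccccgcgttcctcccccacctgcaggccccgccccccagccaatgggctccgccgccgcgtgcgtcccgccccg

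NRF2-responsive antioxidant genes rose in part and by small amounts. Of 24 tested, 9 rose, 1 fell and 14 did not pass. The single fall, of -0.4 on the log2 scale, was larger than the largest rise of 0.345. That fall was lost without 30 ng/ml culture 1, 2 or 5 or unstimulated culture 1, 3 or 4. *Txnrd1*, thioredoxin reductase, was at 157, 168, 158, 158 and 163 CPM and then at 207, 206, 212, 198 and 199 CPM; the rise of 0.34 ± 0.035 was small and among those with the smallest FDR (2.74e-05). *Srxn1*, sulfiredoxin, went from 68.2, 70.0, 68, 67.3 and 65.9 CPM to 83.7, 80.9, 80.2, 83.8 and 80.5 CPM, again with no overlap (FDR 0.000292). *G6pdx*, the entry enzyme of the pentose phosphate pathway, and *Me1*, malic enzyme, both of which supply NADPH, rose by 0.29 ± 0.043 (FDR 0.000769) and 0.31 ± 0.051 (FDR 0.0014). *Gclc*, the catalytic subunit of glutathione synthesis, rose by 0.18 ± 0.042 (FDR 0.014). Without unstimulated culture 1, 4 or 5 or 30 ng/ml culture 1 the list counted 5 rises. The motif TGACNNNGC was present in 10.6% of all windows, in 10.3% of those of rising genes and in 2 of these 9, of which that of *Txnrd1* is shown with the match in capitals (GRCm39, chr10:82694763-82695012, plus strand, 5′ to 3′).
Txnrd1: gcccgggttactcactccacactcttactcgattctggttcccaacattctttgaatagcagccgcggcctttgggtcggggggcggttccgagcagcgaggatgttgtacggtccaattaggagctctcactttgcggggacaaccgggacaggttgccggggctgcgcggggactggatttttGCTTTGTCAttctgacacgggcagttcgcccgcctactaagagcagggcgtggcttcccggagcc

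Genes of iron handling moved in both directions. *Fbxl5*, the iron-sensing F-box protein that degrades IRP2, was at 41.3, 41.5, 39.1, 41.2 and 41.4 CPM and at 68, 61.4, 64, 61.7 and 63.2 CPM, a rise of 0.64 ± 0.045 (FDR 3.8e-07) that was among the smallest FDRs of all genes. *Tfrc*, the transferrin receptor, fell from 122, 117, 116, 113 and 124 CPM to 82.8, 90.0, 92.1, 78.6 and 79.1 CPM (-0.48 ± 0.065; FDR 0.000455). The metalloreductase *Steap3* rose from 17.5, 17.1, 16.6, 17.4 and 19.1 CPM to 25.6, 28.3, 26.7, 26.8 and 23.8 CPM (0.58 ± 0.064; FDR 6.57e-05). In all 3 genes the groups did not overlap. The list of iron handling genes, which does not hold *Fbxl5*, counted 2 rises and 1 fall of 16 tested. The rises were *Steap3* and *Steap4*, the latter already counted with the acute-phase genes. DESeq2 called 5 rises and 3 falls, and library size alone, the likelihood-ratio test and the replicate block 5 rises each.

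Genes of resting microglia fell. Of 19 microglia markers tested, 11 were lower and 0 higher, with a median of -0.418. *Gpr34*, a lysophosphatidylserine receptor of microglia, was at 70.3, 59.4, 82, 83.1 and 70.2 CPM without and 37.3, 44.3, 49.3, 48.6 and 38 CPM with IL-12, with every stimulated culture lower (-0.75 ± 0.12; FDR 0.00146). *Trem2*, the lipid receptor of microglia, was at 263, 248, 346, 367 and 299 CPM and at 182, 217, 231, 236 and 200.3 CPM (-0.51 ± 0.10; FDR 0.00638). *Fcrl2* (listed under its older name Fcrls) fell by 0.58 (FDR 0.00274) and cathepsin S, *Ctss*, by 0.49 (FDR 0.00676). *Cx3cr1*, the fractalkine receptor, fell from 331 ± 42.3 to 245 ± 35.3 CPM with the groups overlapping (FDR 0.025, up to 0.0759 without unstimulated culture 3 or 4 or 30 ng/ml culture 1 or 5). The summed level of the 20 listed markers was 9740 to 13670 TPM in unstimulated cultures and 7728 to 9678 TPM at 30 ng/ml. Unstimulated cultures 3 and 4 held the most and 30 ng/ml cultures 1 and 5 the least of most of these genes, and the count of 11 fell to 5 without unstimulated culture 3, to 7 without unstimulated culture 4, to 5 without 30 ng/ml culture 1 and to 6 without 30 ng/ml culture 5. At 100 ng/ml, 2 of the markers were lower than in unstimulated cultures, with a median of -0.128.

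Complement and lysosomal genes fell beside them. The lists share members with the microglia markers. The falls of *C1qa*, *C1qb*, *C1qc* and *Itgam*, of *Ctss* among lysosomal genes and of *Trem2* among microglial activation genes are counted there as well. Of 19 complement genes 7 fell and 0 rose, among them the initiator chains *C1qa* (1412 ± 227 to 1047 ± 119 CPM; FDR 0.0173), *C1qb* (FDR 0.0272) and *C1qc* (FDR 0.0225), the anaphylatoxin receptor *C3ar1* (271 ± 37.1 to 190.1 ± 24.2 CPM; FDR 0.00406), *Cd55* and *Itgam*. Without unstimulated culture 3 the count was 1, without unstimulated culture 4 or 30 ng/ml culture 1 or 5 it was 2, and without unstimulated culture 5 it was 4; *C3ar1* was called in each of these fits, and the FDR of *C1qa* went up to 0.0534 without unstimulated culture 3 or 4 or 30 ng/ml culture 1, that of *C1qb* up to 0.0811 without unstimulated culture 3 or 4 or 30 ng/ml culture 1 or 5 and that of *C1qc* up to 0.067 without unstimulated culture 3 or 4 or 30 ng/ml culture 1 or 5. *Cd55* and *Itgam* lost their calls in 7 and 4 of the 10 fits without 1 culture. Of 29 lysosomal genes 12 fell and 0 rose, among them *Npc2*, which moves cholesterol out of the lysosome (508 ± 45.7 to 417 ± 26.6 CPM; FDR 0.0093), and the α-galactosidase *Gla* (65.7 ± 7.73 to 51.7 ± 4.23 CPM; FDR 0.0126). That count was 6 without unstimulated culture 3 and 7 without unstimulated culture 4 or 30 ng/ml culture 1 or 5. *Cd68*, a lysosomal protein of phagocytes, fell from 596 ± 82 to 436 ± 50.5 CPM (FDR 0.0093), and *Gpnmb*, listed with it among 24 microglial activation genes (9 falls, 1 rise), from 1544 ± 233 to 1143 ± 137 CPM (FDR 0.0126). In that list the falls numbered 3 without unstimulated culture 3 or 30 ng/ml culture 1 or 5 and 4 without unstimulated culture 4. The part of the summed microglia markers in these falls, and in those of hypoxia-inducible and glycolytic genes, was not tested. At 100 ng/ml against unstimulated cultures the falls did not recur as such. Complement genes had 2 rises and 0 falls there (median -0.026), and lysosomal genes 1 rise and 1 fall (median -0.082). Microglial activation genes had 4 rises and 0 falls (median -0.07). Tested directly between the doses, 0 complement, 0 lysosomal and 1 microglial activation gene differed.

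**Figure D4:**
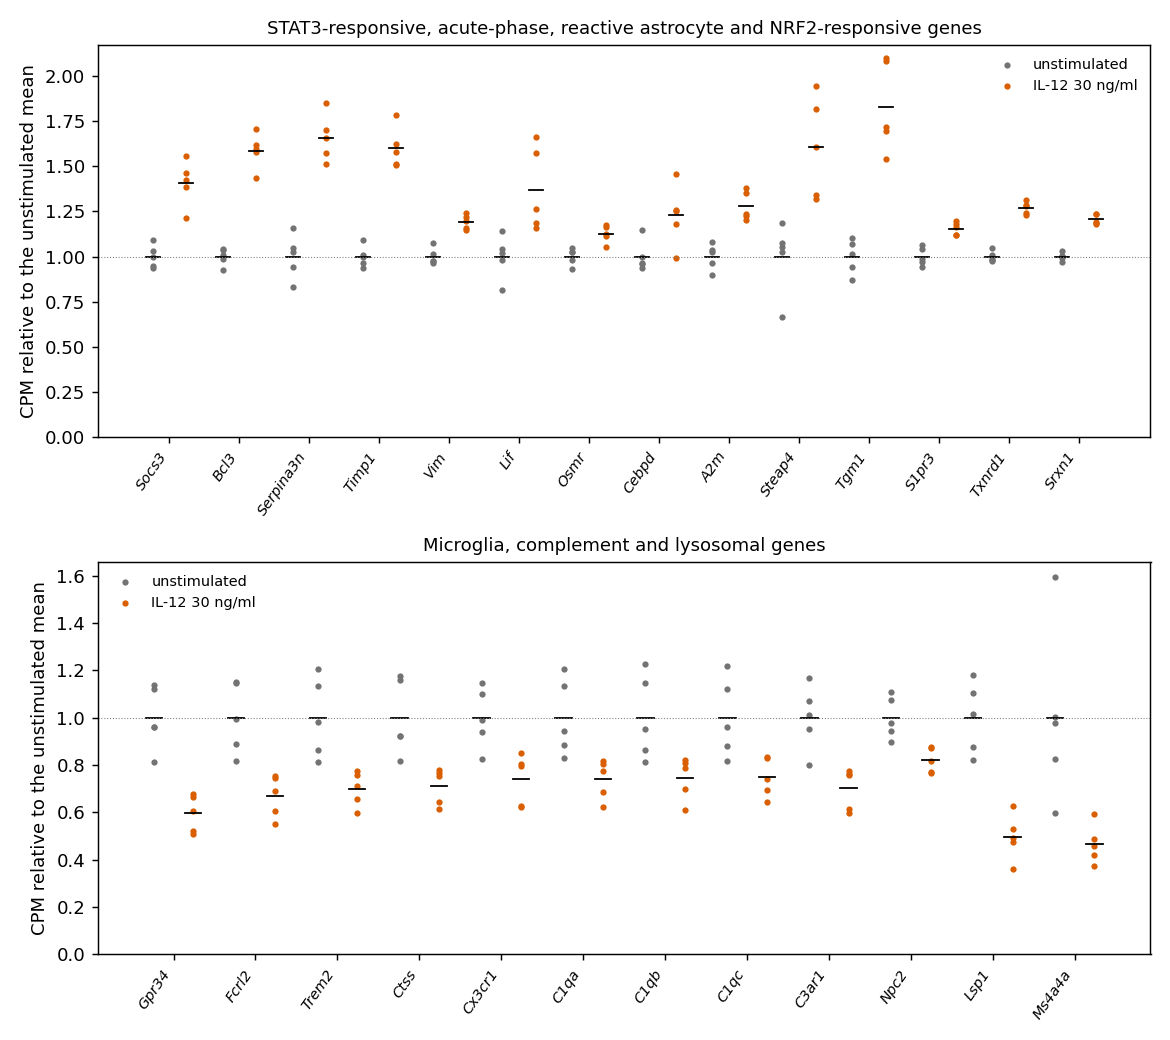
Points are cultures, with the level in CPM divided by the unstimulated mean on the vertical axis (grey unstimulated, orange 30 ng/ml, black bars the means of 5). In the upper panel all stimulated cultures lie above the unstimulated ones for every gene except Cebpd; in the lower panel the groups overlap for Cx3cr1, C1qb and C1qc.

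The genes that follow were named for the size of their fall, not as a tested group. *Ms4a4a*, a tetraspan protein of macrophages, was at 4.70, 2.87, 4.82, 7.67 and 3.97 CPM and at 2.34, 2.02, 2.21, 2.85 and 1.80 CPM (-1.10 ± 0.24; FDR 0.00941). *Lsp1*, a leukocyte actin-binding protein, was at 31.9, 25.7, 37.1, 34.7 and 27.6 CPM and at 11.3, 16.6, 15.4, 19.6 and 14.9 CPM, with no overlap (-1.01 ± 0.12; FDR 0.000213). *Cd28*, known as the costimulatory receptor of T cells, was at 14.9, 8.71, 15.8, 20.9 and 17.2 CPM and at 5.74, 8.10, 8.23, 8.11 and 6.97 CPM (-1.06 ± 0.17; FDR 0.00146); it was the only call among 6 tested T and NK cell markers. The leukotriene receptor *Cysltr1* fell from 8.72 ± 1.83 to 4.66 ± 0.389 CPM (FDR 0.00214), the chemokine receptor *Ccr1* from 5.01 ± 2.22 to 2.58 ± 0.649 CPM (FDR 0.0217, up to 0.0624 without unstimulated culture 4 or 30 ng/ml culture 1 or 5), and *H2-Ob*, the chain of the class II chaperone H2-O, from 2.00 ± 0.364 to 1.08 ± 0.251 CPM (FDR 0.00772).

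The list of innate receptors and inflammasome genes counted 2 rises, *Marco* and *Fpr1*, and 2 falls, the Toll-like receptors *Tlr6* (-0.35 ± 0.10; FDR 0.0365) and *Tlr13* (-0.39 ± 0.099; FDR 0.0231), of 20 tested, with a median of -0.005. Both falls were lost without 30 ng/ml culture 1 or 5 or unstimulated culture 3 or 4; without unstimulated culture 2 the falls numbered 5, and with DESeq2 or the likelihood-ratio test 4. *Marco*, a scavenger receptor of macrophages, was at 3.92, 7.74, 5.55, 7.10 and 3.90 CPM and at 12.5, 13.1, 7.90, 12.5 and 12.8 CPM (1.07 ± 0.18; FDR 0.00145); 30 ng/ml culture 3 was far below the other 4 and just above the highest unstimulated culture. *Fpr1*, the receptor of formylated peptides, was at 1.02, 0.825, 0.840, 0.861 and 0.879 CPM and at 2.01, 1.81, 1.61, 1.41 and 1.56 CPM (0.91 ± 0.15; FDR 0.00168). *Acod1*, which is no receptor but the enzyme that makes itaconate and was named for its difference between doses, went from 4.34, 2.87, 3.32, 2.65 and 2.90 CPM to 4.72, 4.62, 5.17, 6.12 and 4.39 CPM (0.62 ± 0.14; FDR 0.0103). In *Marco*, *Fpr1* and *Acod1* the groups did not overlap.

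Of the other large rises, *Esm1*, the proteoglycan endocan, was at 7.18, 6.67, 6.76, 5.20 and 6.00 CPM and at 14.1, 10.8, 11, 12.1 and 11.9 CPM (0.91 ± 0.091; FDR 2.67e-05). *Angptl4*, an inhibitor of lipoprotein lipase and a PPAR target, went from 2.06, 2.01, 1.83, 2.12 and 1.38 CPM to 4.13, 3.51, 3.37, 4.05 and 4.81 CPM (1.07 ± 0.16; FDR 0.000664). *Aldh1a7*, an aldehyde dehydrogenase, rose from 0.814 ± 0.0910 to 1.86 ± 0.224 CPM, the largest rise among called protein-coding genes of at least 1 CPM whose groups did not overlap (1.20 ± 0.18; FDR 0.000791). The serotonin receptor *Htr2a* (0.979 ± 0.234 to 1.90 ± 0.475 CPM; FDR 0.00604) and the potassium channel *Kcna5* (1.29 ± 0.135 to 2.35 ± 0.566 CPM; FDR 0.00832) rose from low levels. Of the other large falls, *Minar1* was at 11.9, 10.04, 11.6, 11.8 and 12 CPM and at 5.18, 5.70, 6.62, 6.36 and 5.77 CPM (-0.95 ± 0.11; FDR 8.21e-05). The cohesin subunit *Stag3* fell by 0.90 (FDR 0.000351), the troponin *Tnni2* by 0.86 (FDR 0.000446) and *Prelid2* by 1.02 (FDR 0.00354). Among growth factors the mitogen *Fgf2* rose from 68.8 ± 6.69 to 90.4 ± 7.01 CPM (FDR 0.00743), and the list counted 3 rises and 3 falls of 31; its rises numbered 1 without 30 ng/ml culture 5 or unstimulated culture 1 or 5, and its falls 0 without 30 ng/ml culture 1 or unstimulated culture 4 or 5, 1 without 30 ng/ml culture 2 or 5 or unstimulated culture 3 and 5 without unstimulated culture 2. Cyclin D1, *Ccnd1*, rose from 529 ± 19 to 662 ± 46.5 CPM (FDR 0.00198) and the ribonucleotide reductase subunit *Rrm2* from 61.5 ± 1.15 to 72.2 ± 3.53 CPM (FDR 0.00577). Their list of 34 cell cycle genes had 3 rises and 0 falls, 8.82% called, near the 7.87% of all genes tested.

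Of 24 cerebellar neuron markers 2 rose and 2 fell (16.7% called), 12 had an unadjusted p under 0.05, and the median was -0.218. DESeq2 called 5 falls, as did the fit without unstimulated culture 2, and the falls numbered 1 to 5 and the rises 1 to 3 with 1 culture left out. Of 28 synaptic vesicle and release genes 2 rose and 1 fell (10.7% called, against 7.87% of all genes tested). In that list 13 had an unadjusted p under 0.05, and the median was -0.223. DESeq2 and the likelihood-ratio test called 4 falls each there. *Tubb3*, the neuronal β-tubulin, was at 60.7, 63.4, 50.5, 46 and 56.7 CPM and at 84.3, 78.5, 80.9, 73.6 and 75 CPM, with no overlap (0.50 ± 0.079; FDR 0.00118). *Calb1*, the calcium buffer calbindin of Purkinje cells, fell from 42.2, 51.5, 44.5, 45.6 and 44 CPM to 40.0, 33.2, 33.3, 25.2 and 26.4 CPM (-0.53 ± 0.11; FDR 0.00706). *Pax6* (FDR 0.0365) rose and *Gad1* (FDR 0.0448), the GABA-making enzyme, fell narrowly, each losing its call in 7 of the 10 fits without 1 culture. *Rbfox3* was at 5.04, 3.62, 7.30, 3.91 and 6.11 CPM and 3.20, 3.30, 5.05, 2.65 and 2.27 CPM, overlapping (FDR 0.0879; 0.0432 with DESeq2), and neither *Map2* (FDR 0.619) nor *Gabra6* (FDR 0.548) passed. At the synapse, the vesicle protein *Sv2c* rose from 3.55 ± 0.574 to 6.10 ± 0.605 CPM (FDR 0.000524), the priming factor *Unc13a* fell from 13.1 ± 0.912 to 8.91 ± 0.947 CPM (FDR 0.00169) and the inhibitory adhesion molecule *Nlgn2* rose from 91.1 ± 4.01 to 107 ± 3.65 CPM (FDR 0.01). Of 34 axon guidance genes 3 rose and 3 fell, with 1 fall left without unstimulated culture 1 or 5 or 30 ng/ml culture 4 or 5. The netrin receptor *Dcc* rose by 0.62 ± 0.14 (FDR 0.0135), the semaphorin receptor *Plxnb1* by 0.23 ± 0.053 (FDR 0.0131) and *Ephb6* by 0.34 ± 0.077 (FDR 0.0121), and the semaphorin *Sema4d* fell by 0.34 (FDR 0.00146).

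In the oligodendrocyte lineage, *Mal*, a proteolipid of compact myelin, fell from 228, 193, 169.6, 171 and 202 CPM to 135, 145, 134, 124 and 117 CPM (-0.56 ± 0.085; FDR 0.00092), and *Fa2h*, which makes the hydroxylated fatty acids of myelin, from 44.8 ± 4.80 to 34.2 ± 2.92 CPM (FDR 0.0283, up to 0.0796 without unstimulated culture 1 or 5 or 30 ng/ml culture 4 or 5). These were the 2 calls among 18 myelin markers (11.1% called). The median of the 18 was -0.194, and DESeq2 and the likelihood-ratio test called 5 falls each. *Cspg4*, the NG2 proteoglycan of precursors and pericytes, fell from 172 ± 21 to 132 ± 14.2 CPM (FDR 0.00693). It was the only call of 13 precursor markers (7.69%, against 7.87% of all genes tested). Immediate early genes gave 4 falls and 0 rises of 27, among them the orphan receptor *Nr4a3* (14.6 ± 0.786 to 11.7 ± 0.593 CPM; FDR 0.00388) and the mRNA decay factor *Zfp36* (50.5 ± 5.604 to 39.5 ± 3.30 CPM; FDR 0.00668); without unstimulated culture 4 or 30 ng/ml culture 1 the falls numbered 2. *Atf3*, a stress-induced factor counted with the ATF4-responsive genes (1 rise and 1 fall of 30, 6.67% called), fell from 44.3 ± 2.89 to 34.5 ± 3.60 CPM (FDR 0.00929).

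Cytosolic ribosomal protein genes gave 0 calls of 49 by edgeR and by DESeq2 (1 at an unadjusted p under 0.05), with log2 fold changes between -0.121 and 0.096. Fibroblast and meningeal markers gave 0 calls of 16 by edgeR, 8 at an unadjusted p under 0.05, and 1 rise and 1 fall by DESeq2, with a median of -0.091. Heat shock and ER chaperone genes gave 1 rise of 28, 0 without 30 ng/ml culture 1 or 2 or unstimulated culture 3, and 6 with library size alone, 5 with DESeq2 and 3 with the likelihood-ratio test. Cholesterol synthesis genes gave 3 rises and 1 fall of 23 (17.4% called); the fall was lost without 30 ng/ml culture 3, 4 or 5 or unstimulated culture 1 or 5. A member that missed the threshold is not shown to be unaffected.

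The higher dose was compared directly, as 100 against 30 ng/ml in the same fit. Of the 15360 genes 89 differed (0.579%), 77 higher at 100 ng/ml and 12 higher at 30 ng/ml. Of the 1209 genes called at 30 ng/ml, 22 differed between the doses. *Slc13a3*, a carrier of dicarboxylates, stood at 10.4, 9.84, 10.4, 10.1 and 10.3 CPM at 30 ng/ml and at 24.5, 23.2, 24.1, 22.1 and 22.2 CPM at 100 ng/ml, having been at 7.55, 9.11, 8.62, 7.06 and 6.84 CPM without stimulation (difference 1.19 on the log2 scale; FDR 2.39e-08). *Acod1* reached 17.6, 20.9, 16.9, 15.5 and 15.3 CPM (1.78 above 30 ng/ml; FDR 2.41e-07), *Fpr1* 5.61, 6.81, 5.02, 4.78 and 4.69 CPM (1.67; FDR 9.2e-07), *Saa3* 21.2, 27, 19.9, 25.3 and 18.8 CPM (1.59; FDR 3.51e-05) and *Marco* 29.1, 35.2, 35.1, 27.1 and 32.5 CPM (1.43; FDR 0.000122). In these 5 genes the 100 ng/ml cultures lay above all others. *Timp1*, at 37.5 CPM on average, did not pass between the doses (FDR 0.0536), and the metalloproteinase *Mmp14* differed by 0.28 (FDR 0.00825).

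Other genes were set apart from the higher dose in the opposite sense. Among the genes called lower at 30 ng/ml, 4 differed from 100 ng/ml, where none of them was called against unstimulated cultures: the surface glycoprotein *Cd52* (124 ± 20.1 CPM unstimulated, 97 ± 6.58 at 30 and 136 ± 12 at 100 ng/ml; FDR between doses 0.0137), the proton channel *Hvcn1* (57.8 ± 7.13, 47.2 ± 5.02 and 63.1 ± 4.17 CPM; FDR 0.0241), the actin regulator *Gmfg* (8.98 ± 1.22, 6.48 ± 0.783 and 9.44 ± 0.818 CPM; FDR 0.0155) and *Slamf9* (22.9 ± 3.92, 18 ± 1.71 and 27.6 ± 1.02 CPM; FDR 0.00296). Both contrasts share the 5 cultures with 30 ng/ml, so for these genes, and for the 5 rises below, the pattern follows from the choice. All 4 falling genes are genes of haematopoietic cells, chosen here because they were the whole of this group. Their falls at 30 ng/ml were in part narrow: the FDR of *Cd52* went up to 0.0648 without unstimulated culture 3 or 4 or 30 ng/ml culture 1 or 5, that of *Hvcn1* up to 0.112 without unstimulated culture 3, 4 or 5 or 30 ng/ml culture 1, 4 or 5 and that of *Slamf9* up to 0.0829 without unstimulated culture 3 or 4 or 30 ng/ml culture 1 or 5. A further 5 genes rose at 30 ng/ml and were higher there than at 100 ng/ml: the doublecortin-like kinase *Dclk1* (136 ± 13.8, 179 ± 9.59 and 141 ± 14.4 CPM; FDR 0.0369), the inositol carrier *Slc5a3* (109.6 ± 9.98, 129 ± 4.23 and 104 ± 8.68 CPM; FDR 0.0295), the semaphorin receptor *Plxna3* (FDR 0.0429), the adenylate kinase *Ak5* (FDR 0.0321) and the ligand *Wnt5a* (90.6 ± 4.60, 109 ± 2.97 and 93.3 ± 5.71 CPM; FDR 0.035). The rise of *Slc5a3* at 30 ng/ml had an FDR of 0.0323, up to 0.0945 without unstimulated culture 3 or 4 or 30 ng/ml culture 1, 2, 4 or 5. With the smallest FDRs on this side stood *Peg10* (41.9 CPM at 30 and 30.1 CPM at 100 ng/ml; FDR 0.00528) and the progenitor factor *Sox9* (174 and 142 CPM; FDR 0.00762), followed by *Hmga2* (FDR 0.0241) and *Sox2* (FDR 0.0267); none of these was called at 30 ng/ml against unstimulated cultures. The number of genes that differed between the doses depended on single cultures and on the tool: it was 38 without 30 ng/ml culture 5, 55 without 30 ng/ml culture 1, between 53 and 58 without 100 ng/ml culture 1, 4 or 5, 147 without 100 ng/ml culture 2, 241 with DESeq2 and 253 with the likelihood-ratio test.

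**Figure D5:**
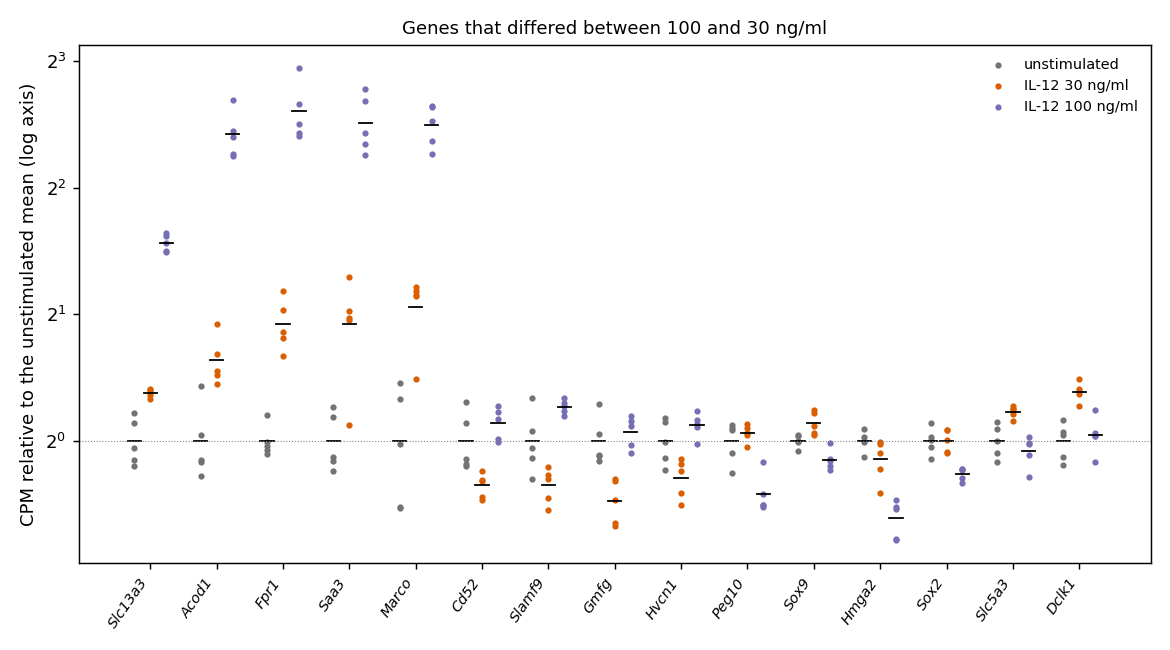
Each point is 1 culture, with its level in CPM divided by the unstimulated mean on a log axis (grey unstimulated, orange 30 ng/ml, purple 100 ng/ml, black bars the means of 5). The first 5 genes rise at 30 ng/ml and further at 100 ng/ml. The next 4 were picked for lying lower at 30 ng/ml than in either other group. The last 6 are lower at 100 than at 30 ng/ml.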

How the data were processed

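RNA of 5 unstimulated cultures and 5 cultures with 30 ng/ml IL-12 was compared; 5 cultures with 100 ng/ml shared the fit. Per the labels and the study's methods, reads were aligned with STAR 2.7.8a to GRCm39 and counted with featureCounts, with quality checks by FastQC 0.10.0. The deposited values are instead estimated counts and TPM of 121798 transcripts per culture; the program that made them and its use of strand are not given in the sources used here. The authors' estimated counts were summed here to 35142 genes with GENCODE M39 transcript identifiers (98.965% of transcripts matched; the rest held at most 0.7122% of the reads) and rounded. The deposited TPM were summed over a gene's transcripts and used for levels only. Estimated counts split reads among paralogs and overlapping genes, which limits the values of such genes. Depth was 26284808 to 38165757 reads in genes per culture.

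Genes reaching 1 CPM in 2 or more of the 15 cultures (15360) were scaled by TMM (0.981 to 1.02; the common biological coefficient of variation was 8%) and tested with edgeR 4.0.16 (R 4.3.3, quasi-likelihood, a model of all groups), with Benjamini-Hochberg FDR over all of them and a threshold of 0.05. Errors of log2 fold changes are standard errors. CPM are TMM-scaled. The fitting was tested on simulated data. Replicates differed by more than sampling noise in every pair, which does not tell separate preparations from wells of the same one. Each culture was counted as a replicate.

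Genes were named by a rule: among protein-coding genes called with no overlap, at least 1 CPM on average and a symbol that is no clone name, the 12 largest changes and the 6 smallest FDRs in each direction; up to 5 members per list with the smallest FDR; the 5 smallest FDRs in each direction between doses; the IL-12 receptor genes; and the defining markers. Some genes that the rule names are not reported here. Further members of a list or of a small count were named after their values were seen. The 42 lists, the rule and the comparison were chosen with earlier results of these data known, so no list is independent evidence. Promoter windows were the 250 bases before the start of the transcript with most reads, from GRCm39. Alternatives were DESeq2 1.42.0, RLE factors, library size alone, other filters and thresholds, edgeR's likelihood-ratio test, a fit of the compared groups alone, a replicate block and each culture left out.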

Additional observations from a re-analysis of the deposited data

Results flagged for a closer look

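In 17 of 308 groups of 5 cultures looked at, the highest or lowest culture stood apart by Dixon's criterion; chance flags about 1 in 20 groups. Unstimulated culture 1 had the most reads in genes (38165757; the other 4 between 26284808 and 28442709) and the highest *Jak2* (64.1 CPM; 55.8 to 57.9) and *Fpr1* (1.02 CPM; 0.825 was the lowest and 0.879 the highest of the other 4). Unstimulated culture 2 had the lowest *Slc16a3* (51.1 CPM; 64.1 to 67.1) and *Minar1* (10.04 CPM; 11.6 to 12.0) and the highest *Cebpd* (46.1 CPM; 37.8 to 40.1). Unstimulated culture 3 had the highest *Gad1* (22.0 CPM; 13.9 to 15.6) and *Gabra6* (4.31 CPM; 1.61 to 2.35) and the lowest *Fbxl5* (39.1 CPM; 41.2 to 41.5). Unstimulated culture 4 had the highest *Tyk2* (42.6 CPM; 34.1 to 36.4) and *Ccr1* (8.89 CPM; 3.30 to 4.64).

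Of the cultures with 30 ng/ml, culture 4 had the highest levels of *Bnip3* (64.8 CPM; 44.1 to 47.8 in the other 4), *Ak4* (24.8 CPM; 16.9 to 18.4) and *Gpi1* (427 CPM; 361 to 380.0). Culture 3 had the lowest *Marco* (7.90 CPM; 12.5 to 13.1), and culture 5 the highest *Plxna3* (22.7 CPM; 18.5 to 19.2) and the lowest *Osm* (3.646 CPM; 4.75 to 5.11).

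Between 100 and 30 ng/ml, tested as a contrast in edgeR's fit with FDR over all genes, 19 of the 153 genes named and tested differed. Many were named for this difference, so the count cannot be set against the 0.579% of all genes that differed. Higher at 100 ng/ml on the log2 scale were *Acod1* by 1.78, *Fpr1* by 1.67, *Saa3* by 1.59, *Marco* by 1.43, *Slc13a3* by 1.19, *Slamf9* by 0.62, *Gmfg* by 0.55, *Cd52* by 0.49, *Hvcn1* by 0.42 and *Mmp14* by 0.28. Lower at 100 ng/ml were *Peg10* (-0.48), *Hmga2* (-0.47), *Dclk1* (-0.34), *Slc5a3* (-0.31), *Plxna3* (-0.30), *Sox9* (-0.29), *Sox2* (-0.26), *Ak5* (-0.25) and *Wnt5a* (-0.22).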

How the results depend on the processing

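The number of genes called at 30 ng/ml (1209) lay between 990 and 1668 with DESeq2, RLE factors, library size alone, other filters, the likelihood-ratio test and only the groups compared, and between 673 and 1552 with 1 culture left out. For rises (639) the range without 1 culture was 395 to 747, for falls (570) 278 to 805. An FDR under 0.01 left 404 calls (229 rises, 175 falls), and stricter limits (unadjusted p up to 0.01, absolute log2 change from 0.5) left 243 (87 rises, 156 falls). Of the 89 genes that differed between 100 and 30 ng/ml, the count was 241 with DESeq2, 253 with the likelihood-ratio test, 35 at an FDR under 0.01 and 38 to 147 with 1 culture left out; the cause was not tested.

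No source used here says that same-numbered cultures share an origin. Their deviations from the group means correlated between -0.34 and 0.449 over 5 pairs, and 1 of 5 stimulated cultures correlated best with its own number. A fit with the replicate number as a block called 1081 genes (543 rises, 538 falls) and 69 between the doses; *Cebpd*, *Pax6*, *Gad1*, *Slc5a3*, *Tlr6* and *Cd55* were then not called. With only the groups compared, *Vegfa*, *Hk2*, *Hvcn1*, *Slamf9* and *Tlr6* lost their calls, with library size alone *Vegfa* and *Cd55*, with RLE factors *Osmr*, and with no filter on low counts *Osmr*, *Gpi1*, *Tlr6* and *Cd55*.

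Of 133 called genes named here, 109 were called in every fit without 1 culture and 0 changed direction under any alternative run. The sign of some genes that were not called did change. It did so for *Il12rb2* without 30 ng/ml culture 2 (-0.006), 3 (-0.002) or 4 (-0.028) or unstimulated culture 3 (-0.012), for *Tyk2* without unstimulated culture 4 (0.023), for *Eomes* (0.001) without unstimulated culture 3, and for *Sox2* with DESeq2, RLE factors or only the groups compared (-0.004 each), without 30 ng/ml culture 1 (-0.021), 3 (-0.001) or 5 (-0.02) and without unstimulated culture 1 (-0.012) or 3 (-0.034). With 1 culture left out, *Il12rb2* lay between -0.028 and 0.118, *Tyk2* between -0.06 and 0.023, *Sox2* between -0.034 and 0.037 and *Eomes* between -0.273 and 0.001. Genes around 1 CPM rest on few reads, which limits the precision of their fold changes.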
